A study of Mus musculus with 7 samples.

Results

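The genes described here encode the synaptic and calcium-handling proteins by which a sensory hair cell passes on its signal and receives feedback. They were 10 genes of the 32285 in the count files, fixed by name: Otof, Slc17a8, Cacna1d, Cabp2, Calb2, Ocm, Bsn, Rims2, Chrna9 and Chrna10. Their level in 4 Gent+Fos OE libraries was set against that in 3 Gent libraries. Both groups came from wild-type P2 mouse utricles, the balance organs that sense linear acceleration, kept as explants, treated with 2 mM gentamicin, an aminoglycoside that kills hair cells, for 24 h, and harvested 5 days after the injury. The Gent+Fos OE explants were also given AAV-PHP.eB carrying Fos, the gene of the AP-1 transcription factor subunit c-Fos, for 48 h. Each library was made from 12 pooled utricles. Gentamicin is the only agent that the labels give for the Gent group. The names of its count files hold letters that can also mean shRNA, and whether a virus was present in that group was not settled. The explants were whole tissue, so all cell types of the organ, hair cells among them, contributed reads, and fewer cells of a type cannot be told apart from less RNA per cell.

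A hair cell releases glutamate from a ribbon synapse. Deflection of its hair bundle depolarizes the cell, the Cav1.3 calcium channel opens beside the ribbon, and the calcium sensor otoferlin triggers fusion of vesicles that the transporter VGLUT3 has filled with glutamate. Cytosolic calcium-binding proteins shape the calcium signal, and scaffold proteins such as bassoon hold ribbon, channels and vesicles together. In the opposite direction, cholinergic efferent fibres from the brainstem act on receptors built from the alpha9 and alpha10 nicotinic subunits, whose calcium entry opens the small-conductance potassium channel SK2.

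Total counts ran from 27879889 to 34335214 per library. Fos itself was at 151.1, 150.6, 167.0 and 148.8 CPM (counts scaled to library size, with TMM-scaled library sizes) in Gent+Fos OE replicates 1 to 4 and at 39.5, 40.6 and 34.6 CPM in Gent replicates 1 to 3, as the labels say, although the counts do not separate viral from endogenous transcripts. A library trend with gene length moved with the groups. Over genes, whose values are not independent, each library's deviation from the mean of all libraries correlated with the exonic length of the gene at a Spearman's rho of 0.20 to 0.44 in Gent+Fos OE and at 0.18, -0.59 and -0.29 in Gent replicates 1 to 3. The log2 fold change (Gent+Fos OE over Gent throughout) went with length at a rho of 0.38 over the 17155 genes tested, at 0.19 without Gent replicate 2 and at -0.04 once each library's length trend was removed with an offset. Of the 9 members tested, 5 exceeded the median exonic length of the tested genes, 4084 bases, and all 5 had a positive fold change, so each member below is also given with the length offset. All 16 hair cell marker genes on a fixed list, among them Myo7a and Myo6, were detected and passed the filter on low counts. Their summed level was 1116 to 1291 CPM in Gent+Fos OE and 881.1 to 1038 CPM in Gent.

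With edgeR's quasi-likelihood test, none of the 9 tested members was called in either direction (adjusted p under 0.01 with a log2 fold change beyond 0.25 either way), beside 0.134% of all tested genes called higher and 0.28% called lower. Without adjustment, 4 of the 9 were higher at a p under 0.05, against 11.1% of all tested genes, and 0 of the 9 were lower, against 13.4%. These 4 were Slc17a8, Cacna1d, Rims2 and Chrna9, and in each of them the lowest Gent+Fos OE library exceeded the highest Gent library, as in 11.3% of tested genes. In none of the 9 did every Gent+Fos OE library lie below every Gent library, as it did in 12.2% of tested genes, and the groups of the other 5 overlapped. The same 4 remained without Gent replicate 2, both by the unadjusted p (9.99% of the genes tested in that fit) and by the lack of overlap (14.7%), while Slc17a8, Rims2 and Chrna9 remained with the length offset (9.87%). DESeq2 called 2 of the members, Slc17a8 and Rims2, at the same limits, beside 1.75% of genes called higher. The median log2 fold change of the 9 was 0.55, against 0.00 over all tested genes, and it was 0.25 with the length offset. The tenth member, Ocm, had too few reads to be tested.

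**Figure D1:**
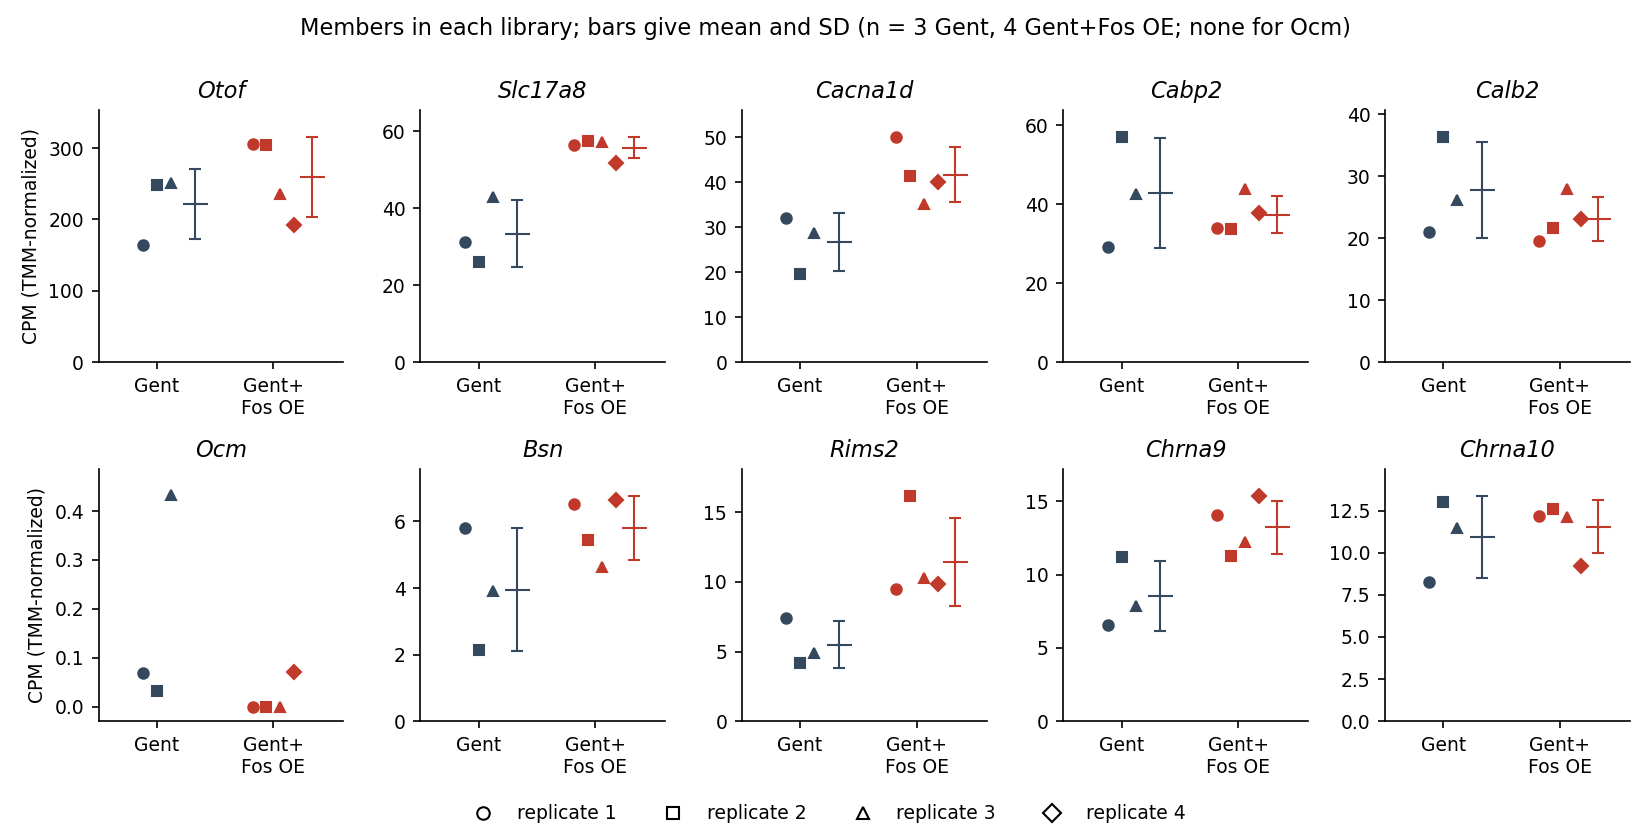
Normalized level (CPM, linear axis) of each of the 10 members in the 3 Gent and 4 Gent+Fos OE libraries, with symbols for replicates and bars for the group mean and SD except for Ocm. For Slc17a8, Cacna1d, Rims2 and Chrna9 the groups did not overlap, by a margin of 11.24 against 11.22 CPM in Chrna9, and for the other 5 tested members they did.

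Promoter sequence was available for 7 of the 10 members in RefSeq windows on GRCm38.p6 (the assembly of mm10) that run from 250 bases before to 50 bases after a transcript start, 10 windows in all. Otof, Calb2 and Rims2 were not matched. Both motifs were searched on both strands. The AP-1 site TGANTCA, the motif bound by complexes of c-Fos, was found in 0 of these 10 windows and in 7.81% of all 32851 windows. The E-box CANNTG was found in 8 of the 10 and in 72.3% of all windows. The 250 bases before the start are printed for the transporter gene Slc17a8 and for the receptor subunit genes Chrna9 and Chrna10, to set 2 genes whose groups did not overlap beside 1 whose groups did, with E-boxes in capitals. They are chr10:89621250-89621499 on the minus strand for Slc17a8, chr5:65966874-65967123 on the plus strand for Chrna9 and chr7:102116714-102116963 on the minus strand for Chrna10, each printed 5′ to 3′ along the gene. The run of Chrna9 lies inside the span that the files give this gene.
Slc17a8: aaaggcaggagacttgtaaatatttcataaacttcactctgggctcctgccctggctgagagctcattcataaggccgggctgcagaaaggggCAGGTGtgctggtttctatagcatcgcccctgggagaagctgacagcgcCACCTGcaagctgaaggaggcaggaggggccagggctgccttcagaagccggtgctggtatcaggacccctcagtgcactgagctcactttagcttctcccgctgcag
Chrna9: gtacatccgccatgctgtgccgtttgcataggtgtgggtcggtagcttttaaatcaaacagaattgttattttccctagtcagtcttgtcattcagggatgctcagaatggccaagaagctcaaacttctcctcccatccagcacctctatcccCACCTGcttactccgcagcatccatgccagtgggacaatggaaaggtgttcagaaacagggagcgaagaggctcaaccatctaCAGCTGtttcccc
Chrna10: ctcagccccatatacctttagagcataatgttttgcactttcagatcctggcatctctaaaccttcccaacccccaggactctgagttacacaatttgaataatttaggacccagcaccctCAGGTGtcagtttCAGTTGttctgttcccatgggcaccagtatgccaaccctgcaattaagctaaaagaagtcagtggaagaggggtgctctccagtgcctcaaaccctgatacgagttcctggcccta
Each of the 3 runs holds 2 E-boxes and no TGANTCA. RefSeq gives Slc17a8 another start, whose run at chr10:89599816-89600065 holds 1 E-box and is not printed. A match, or its lack, describes these letters in these windows and says nothing of binding.

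Otof encodes otoferlin, the calcium sensor of vesicle fusion at the hair cell ribbon synapse. It lies on chromosome 5 of mm10 from 30367062 to 30461932 on the minus strand. Its level was 306.1, 304.4, 235.3 and 192.3 CPM in Gent+Fos OE replicates 1 to 4 and 164.8, 248.2 and 251.6 CPM in Gent replicates 1 to 3. Gent+Fos OE replicates 1 and 2 were highest, Gent replicate 1 was lowest, and the groups overlapped. Averaged, Gent+Fos OE had 259.5 ± 55.6 CPM (SD, n = 4) and Gent 221.5 ± 49.1 CPM (SD, n = 3), for a log2 fold change of 0.23 with a 95% interval of -0.22 to 0.68 (edgeR adjusted p = 0.495). The difference was within the spread of either group, and it was 0.01 with the length offset and 0.05 without Gent replicate 1.

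Slc17a8 encodes VGLUT3, which loads glutamate into the synaptic vesicles of hair cells. It lies on chromosome 10 from 89574020 to 89621253 on the minus strand. Its level was 56.6, 57.4, 57.4 and 51.8 CPM in Gent+Fos OE replicates 1 to 4 and 31.3, 26.0 and 43.1 CPM in Gent replicates 1 to 3. All 4 Gent+Fos OE libraries lay close together and above the Gent libraries, of which replicate 3 came nearest. The means were 55.8 ± 2.71 CPM (SD, n = 4) and 33.4 ± 8.76 CPM (SD, n = 3), which made Slc17a8 1.67-fold higher in Gent+Fos OE. The log2 fold change was 0.74 (standard error 0.17, 95% interval 0.37 to 1.11), with an adjusted p of 0.0552 in edgeR and 0.00236 in DESeq2. The exact permutation test over the 35 ways to assign the libraries gave p = 0.0286, the smallest it allows. The fold change hardly moved with the length offset, at 0.73 (edgeR adjusted p = 0.0303), and was lowest without Gent replicate 2, at 0.58, and highest without Gent replicate 3, at 0.96 (edgeR adjusted p = 0.0302 to 0.171 over the libraries left out).

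The other vesicular glutamate transporters were nearly absent. Slc17a6 (VGLUT2) was at 0.195 to 0.98 CPM in Gent+Fos OE and 0.347 to 0.577 CPM in Gent, and Slc17a7 (VGLUT1), at 0.0684 to 0.684 CPM over all 7 libraries, did not pass the filter on low counts.

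Cacna1d encodes the pore subunit of Cav1.3, the calcium channel of the ribbon synapse. It lies on chromosome 14 from 30039939 to 30491455 on the minus strand, and 4.85% of its exonic bases overlap genes on the other strand, Chdh among them. Its level was 50.0, 41.3, 35.2 and 40.0 CPM in Gent+Fos OE replicates 1 to 4 and 31.9, 19.6 and 28.7 CPM in Gent replicates 1 to 3. Gent+Fos OE replicate 1 was highest and Gent replicate 2 lowest, and the groups did not overlap. The means were 41.6 ± 6.15 CPM (SD, n = 4) against 26.7 ± 6.43 CPM (SD, n = 3), and the log2 fold change was 0.64 (standard error 0.19, 95% interval 0.23 to 1.05, edgeR adjusted p = 0.102), with the smallest p of the exact permutation test (p = 0.0286). Cacna1d is one of the longest members at 15183 bases of exon, and with the length offset its log2 fold change was 0.25 (edgeR adjusted p = 0.265).

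Bsn and Rims2 encode scaffold proteins of the active zone, bassoon, which anchors the ribbon, and RIM2, which links vesicles and calcium channels. Bsn lies on chromosome 9 from 108096022 to 108190384 on the minus strand, and Rims2 on chromosome 15 from 39198261 to 39684372 on the plus strand. Bsn was at 6.51, 5.45, 4.62 and 6.63 CPM in Gent+Fos OE replicates 1 to 4 and at 5.82, 2.15 and 3.9 CPM in Gent replicates 1 to 3, from only 67 to 200 reads per library. Gent replicate 1 lay within the Gent+Fos OE range and Gent replicate 2 far under it. Its log2 fold change of 0.55 had a 95% interval of -0.12 to 1.23 (edgeR adjusted p = 0.279), and was 0.20 with the length offset, 0.25 without Gent replicate 2 and 0.93 without Gent replicate 1.

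Rims2 was at 9.51, 16.14, 10.29 and 9.84 CPM in Gent+Fos OE replicates 1 to 4 and at 7.39, 4.2 and 4.91 CPM in Gent replicates 1 to 3. Gent+Fos OE replicate 2 stood above all other libraries, and the groups did not overlap. The means were 11.4 ± 3.15 CPM (SD, n = 4) and 5.5 ± 1.68 CPM (SD, n = 3), which made Rims2 2.08-fold higher in Gent+Fos OE, the largest fold of the 9 tested members. The log2 fold change was 1.06 (standard error 0.26, 95% interval 0.49 to 1.63), with an adjusted p of 0.0656 in edgeR and 0.00339 in DESeq2, and the exact permutation test gave its smallest p (p = 0.0286). It was 0.80 with the length offset (edgeR adjusted p = 0.074) and 0.84 without Gent+Fos OE replicate 2 (edgeR adjusted p = 0.149).

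Cabp2, Calb2 and Ocm encode cytosolic calcium-binding proteins. CaBP2 is a calmodulin-like regulator of Cav1.3, calretinin (Calb2) a calcium buffer that marks type II vestibular hair cells and some afferents, and oncomodulin (Ocm) a buffer of type I hair cells in the central, striolar zone. Cabp2 (chromosome 19, 4081578 to 4087340, plus strand) was at 34.1, 33.7, 43.9 and 37.8 CPM in Gent+Fos OE replicates 1 to 4 and at 29.1, 57.0 and 42.5 CPM in Gent replicates 1 to 3. Gent held both the lowest and the highest library, and the 4 Gent+Fos OE libraries lay between them. The log2 fold change of -0.20 had a 95% interval of -0.65 to 0.25 (edgeR adjusted p = 0.562), and its sign turned with the length offset, to 0.11, and without Gent replicate 2, to 0.06, while it was -0.41 without Gent replicate 1.

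Calb2 (chromosome 8, 110137502 to 110168210, minus strand) was at 19.5, 21.6, 27.9 and 23.2 CPM in Gent+Fos OE replicates 1 to 4 and at 21.1, 36.3 and 26.1 CPM in Gent replicates 1 to 3. Gent replicate 2 was highest here as it was for Cabp2, and the groups overlapped. The log2 fold change of -0.27 had a 95% interval of -0.70 to 0.16 (edgeR adjusted p = 0.393) and was 0.00 with the length offset, -0.04 without Gent replicate 2 and -0.44 without Gent replicate 1. Cabp2 and Calb2 are the shortest tested members, with 1350 and 1743 exonic bases.

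Ocm (chromosome 5, 144019804 to 144026670, minus strand) had 0, 0, 0 and 2 reads in Gent+Fos OE replicates 1 to 4 and 2, 1 and 15 reads in Gent replicates 1 to 3. In a library without a read a level of up to 3 counts is allowed, which is 0.0934 to 0.0983 CPM here, so Ocm was at or under the limit of detection in 6 of the 7 libraries. The reads of Gent replicate 3 made up most of all that were counted, and no fold is given.

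Chrna9 and Chrna10 encode the subunits of the receptor that receives efferent acetylcholine. Chrna9 (chromosome 5, 65934921 to 65977326, plus strand) was at 14.1, 11.24, 12.2 and 15.3 CPM in Gent+Fos OE replicates 1 to 4 and at 6.54, 11.22 and 7.89 CPM in Gent replicates 1 to 3. The groups all but touched, at Gent+Fos OE replicate 2 and Gent replicate 2. The means were 13.2 ± 1.83 CPM (SD, n = 4) against 8.55 ± 2.41 CPM (SD, n = 3), and the log2 fold change was 0.63 (standard error 0.21, 95% interval 0.17 to 1.08, edgeR adjusted p = 0.124), again with the smallest p of the exact permutation test (p = 0.0286). It did not shrink with the length offset, at 0.78 (edgeR adjusted p = 0.0425), and was 0.87 without Gent replicate 2 and 0.47 without Gent replicate 1.

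Chrna10 (chromosome 7, 102111266 to 102116828, minus strand) was at 12.2, 12.6, 12.1 and 9.2 CPM in Gent+Fos OE replicates 1 to 4 and at 8.25, 13.01 and 11.47 CPM in Gent replicates 1 to 3. The groups overlapped over most of their range. The log2 fold change was 0.08 with a 95% interval of -0.35 to 0.50 (edgeR adjusted p = 0.818), 0.27 with the length offset and -0.09 without Gent replicate 1. Art1 on the other strand overlaps 39.0% of the exonic bases of Chrna10, and reads from that stretch were not counted for either gene.

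The subunit genes were therefore set against each other within each library, a comparison chosen after their values were seen. The ratio of Chrna9 to Chrna10 CPM was 1.16, 0.891, 1.01 and 1.67 in Gent+Fos OE replicates 1 to 4 and 0.792, 0.862 and 0.688 in Gent replicates 1 to 3. Every Gent+Fos OE ratio was above every Gent ratio, with a margin of 0.891 against 0.862. The mean log2 ratio differed by 0.56 (exact permutation test, p = 0.0571), and by 0.53 with the length trend removed.

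**Figure D2:**
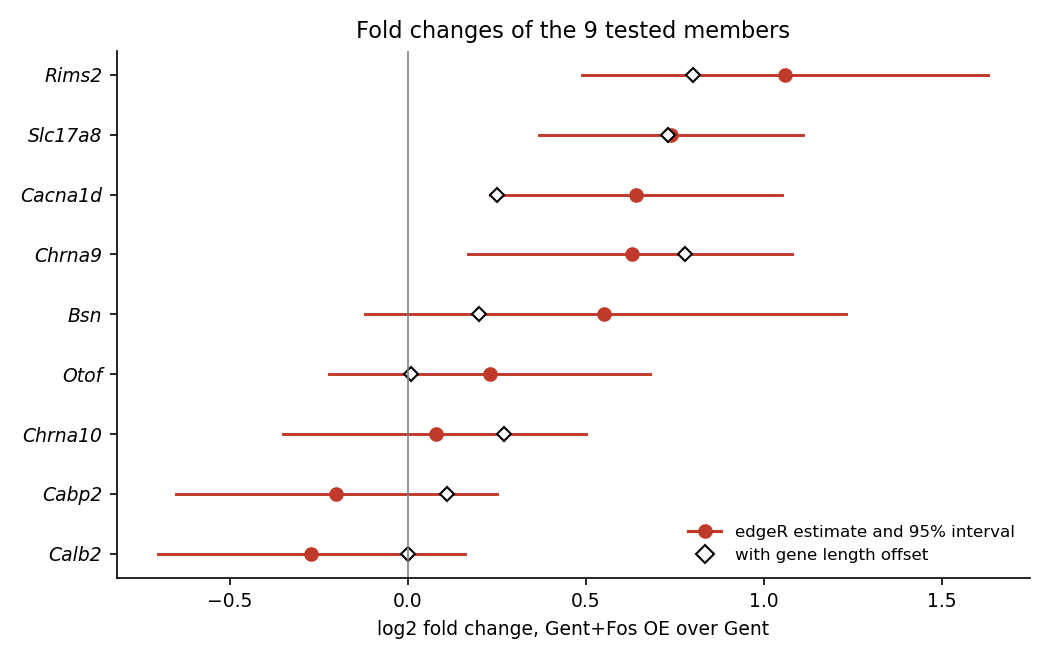
Log2 fold change (Gent+Fos OE over Gent) of the 9 tested members from edgeR with its 95% interval (red points and lines), and the estimate with the gene length offset (open diamonds). The intervals of Rims2, Slc17a8, Cacna1d and Chrna9 lie above 0, and with the offset the estimates of Cacna1d, Bsn and Otof dropped to 0.25, 0.20 and 0.01 while those of Slc17a8 and Chrna9 stood at 0.73 and 0.78.

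The spread among the Gent libraries fell into a pattern. Gent replicate 1 was the lowest library of its group for 5 members, Otof, Cabp2, Calb2, Chrna9 and Chrna10. Gent replicate 2 was the lowest for the other 4, Slc17a8, Cacna1d, Bsn and Rims2, which have 4720 to 15938 exonic bases. Otof, with 7904, falls in that range but did not share this order. The same replicate 2 was the highest of its group for Cabp2, Calb2, Chrna9 and Chrna10, which have 1350 to 3026. Gent replicate 2 is the library with the strongest trend against length, and the part of that trend in single members was measured only through the offset.

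**Figure D3:**
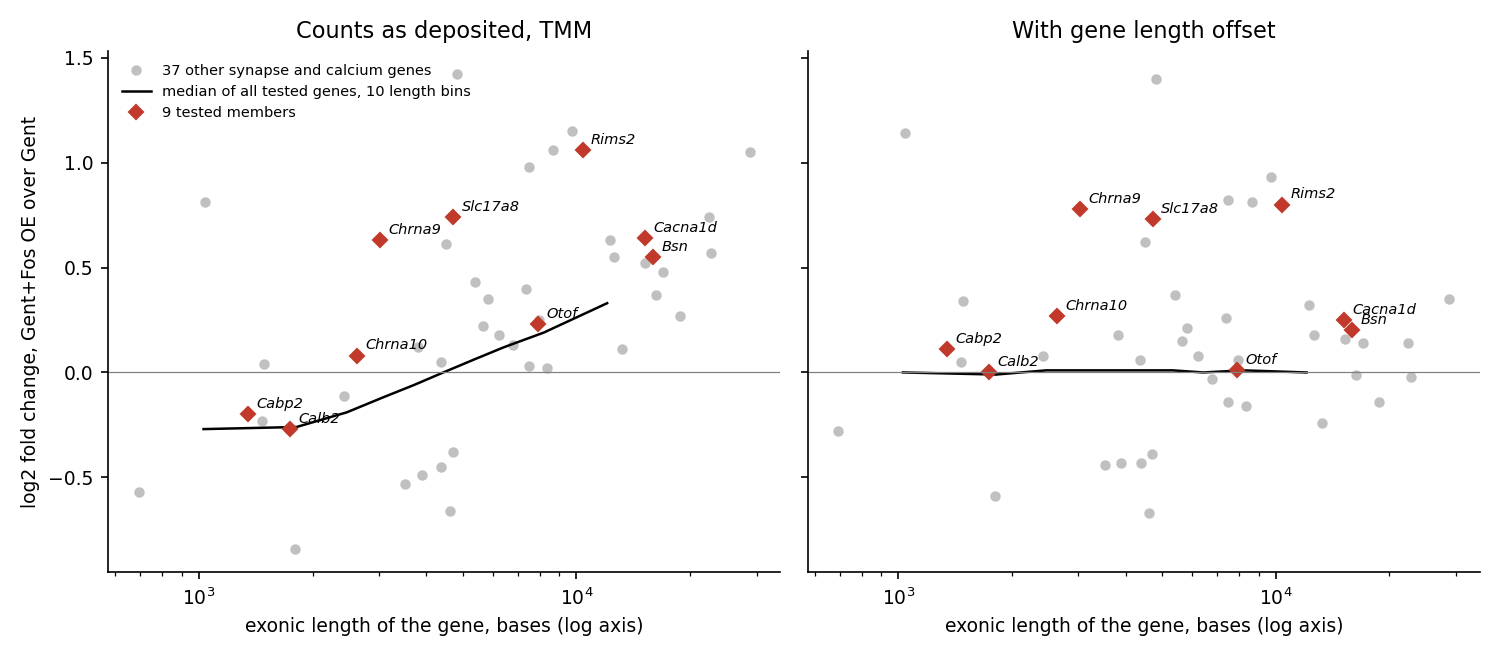
Log2 fold change (Gent+Fos OE over Gent) against exonic gene length in bases (log axis) for the 9 tested members, the 37 tested genes of the release, calcium and cholinergic lists, and the median of all tested genes in 10 bins of length, from the counts with TMM scaling (left) and with the gene length offset (right). The median of all tested genes climbed from -0.27 in the shortest bin to 0.33 in the longest on the left and stayed between -0.01 and 0.01 on the right, where Chrna9, Slc17a8 and Rims2 stood at 0.78, 0.73 and 0.80.

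Levels between genes were compared per length, as CPM per kilobase of exon. Otof led in Gent+Fos OE at a mean of 32.8, followed by Cabp2 at 27.7, Calb2 at 13.2, Slc17a8 at 11.8, Chrna10 at 4.39, Chrna9 at 4.37, Cacna1d at 2.74, Rims2 at 1.1, Bsn at 0.364 and Ocm at 0.0243. In Gent the means per kilobase were 28.0, 31.7, 15.97, 7.08, 4.15, 2.83, 1.76, 0.53, 0.248 and 0.243 in the same order of genes. Otof was above Cabp2 in only 3 of the 7 libraries, so these top 2 genes are not ordered, and Chrna10 was above Chrna9 in 5 of the 7. Each of the other neighbours kept its order in 6 or 7 of the 7 libraries. Chrna10 was divided by its full exonic length, of which 39.0% overlaps Art1 and received no counts. Its level per kilobase is therefore understated, and its near tie with Chrna9 and its place in the order are not settled. By level per length Otof stood at the 91.0th percentile of tested genes and Bsn at the 10.5th.

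**Figure D4:**
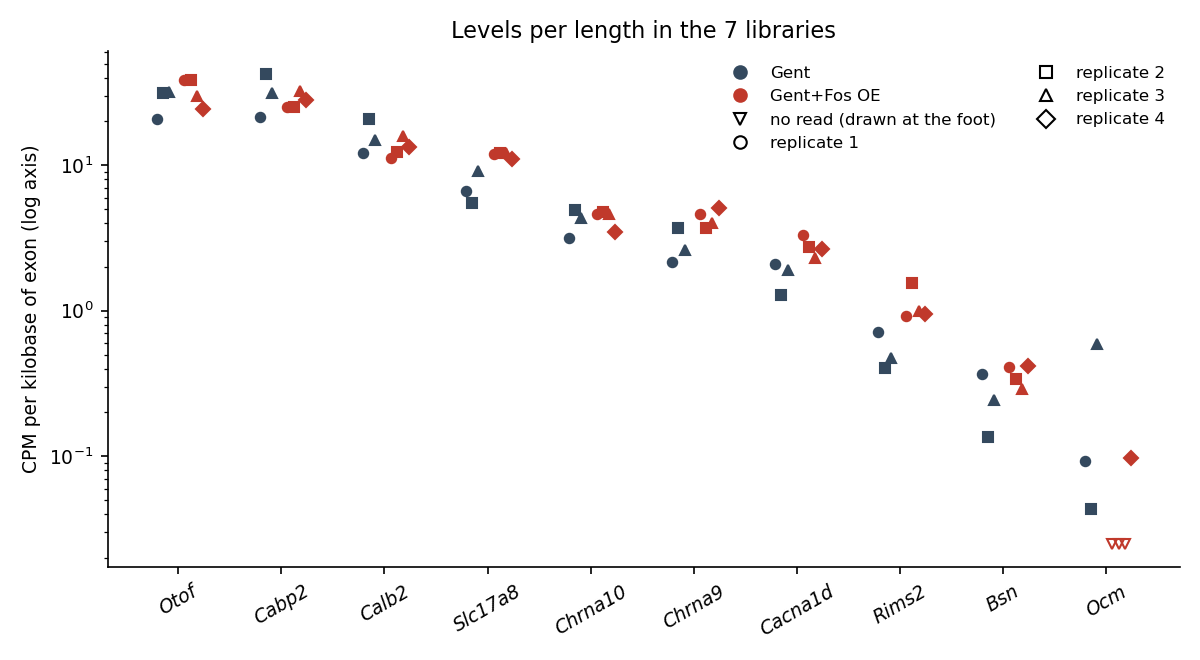
Level of each member per exonic length (CPM per kilobase, log axis) in the 3 Gent and 4 Gent+Fos OE libraries, with symbols for replicates and open triangles for libraries without a read. The members span from about the level of Otof and Cabp2, 32.8 and 27.7 in Gent+Fos OE, to Bsn at 0.364 and Ocm at 0.0243. Chrna10 is divided by its full exonic length, the overlap with Art1 included, which understates its level.

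Since the tissue holds other cells besides hair cells, each member was also set against the mean log2 CPM of the 16 hair cell markers in its own library. That mean was 5.31 ± 0.09 (SD, n = 4) in Gent+Fos OE and 5.07 ± 0.16 (SD, n = 3) in Gent, a difference of 0.25 (exact permutation test, p = 0.0571). Relative to the markers, Slc17a8 was at 0.44, 0.47, 0.57 and 0.51 log2 units in Gent+Fos OE replicates 1 to 4 and at 0.11, -0.42 and 0.27 in Gent replicates 1 to 3. It was the only member whose Gent+Fos OE libraries all lay above Gent on this scale, as 1.73% of tested genes did, with a difference of 0.51 (exact permutation test, p = 0.0286, adjusted p = 0.171 over the 9 members). Calb2 was the only member that lay below without overlap, as 29% of tested genes did, with a difference of -0.49 (exact permutation test, p = 0.0571, adjusted p = 0.171) and groups that met at -0.45. The differences were 0.75 for Rims2, 0.40 for Cacna1d, 0.38 for Chrna9, 0.33 for Bsn, -0.02 for Otof, -0.16 for Chrna10 and -0.40 for Cabp2, all with overlapping groups. No length offset was applied on this scale, so the length trend remains in all these differences. With the offset, the log2 fold change from edgeR was 0.00 for Calb2 and 0.11 for Cabp2, and the median of the markers was 0.13. Without Gent replicate 2 the difference was 0.31 for Slc17a8, 0.16 for Cacna1d, 0.55 for Rims2, 0.54 for Chrna9, -0.04 for Bsn, -0.21 for Cabp2 and -0.32 for Calb2, and without Gent replicate 1 that of Cacna1d was 0.64 and that of Bsn 0.72. Also without Gent replicate 1, 4 members (Slc17a8, Cacna1d, Bsn and Rims2) lay above without overlap, as 12% of tested genes did, and 3 (Cabp2, Calb2 and Chrna10) lay below, as 31.2% did. With these group sizes the permutation p cannot go below 0.0286, so no member could pass a limit of 0.01.

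**Figure D5:**
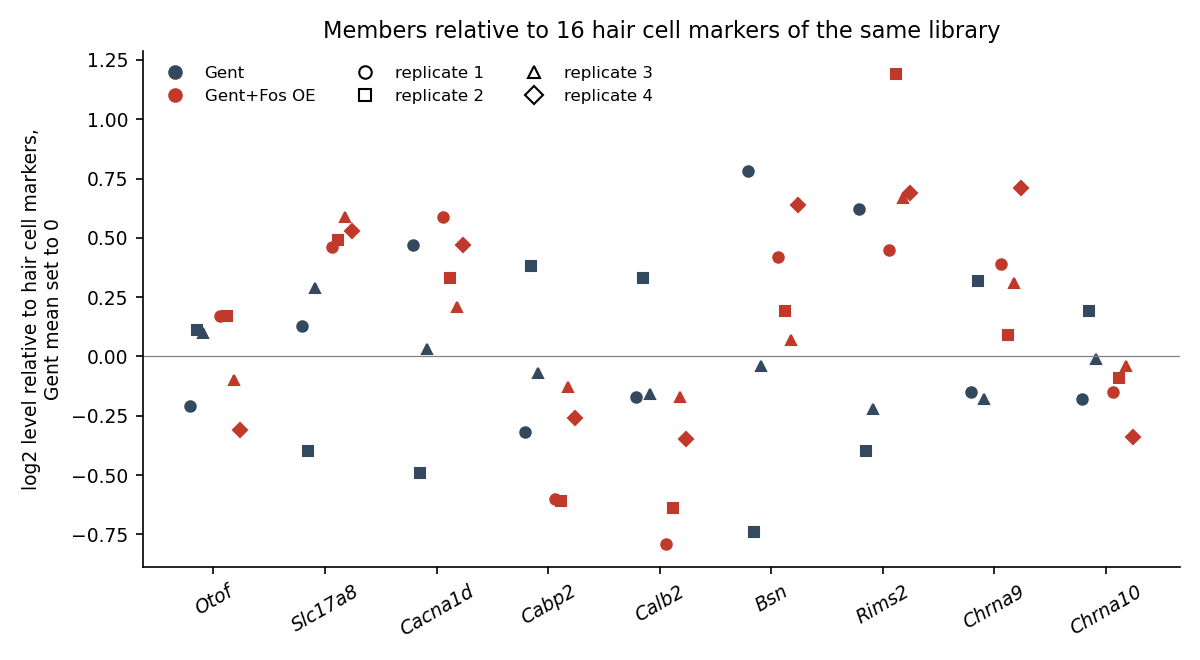
Log2 level of each tested member relative to the mean of 16 hair cell markers of the same library, with the Gent mean of each gene set to 0, in the 3 Gent and 4 Gent+Fos OE libraries. The Gent+Fos OE libraries of Slc17a8 stood together above all Gent libraries, a difference of 0.51 between the means, while Otof was spread around 0 in both groups. No length offset was applied to these levels.

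The gene pattern most like that of Otof over the 7 libraries, among the 14286 tested genes that averaged 1 CPM or more, was that of Sox13 (Pearson's r = 0.98, Spearman's rho = 0.93). Rasd2 (r = 0.977), Gm10648 (r = 0.972), Mpp2 (r = 0.968) and Tmem108 (r = 0.967) came next. Of the members, Chrna10 followed Otof most closely (r = 0.890, rho = 0.68), then Slc17a8 (r = 0.439, rho = 0.43) and Chrna9 (r = 0.401, rho = 0.21), and the other 5 had an r of -0.143 to 0.244. These are descriptions over 7 libraries that share their tissue and scaling.

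The wider release machinery comprised 19 listed genes of ribbon, active zone and vesicle fusion, of which 18 were tested. None was called, 4 were higher and 0 lower at an unadjusted p under 0.05 in edgeR, and the median log2 fold change was 0.21, or 0.06 with the length offset. Erc2, which encodes the active zone protein ELKS2, was at 10.2 to 13.9 CPM in Gent+Fos OE and 3.91 to 7.53 CPM in Gent. Its log2 fold change of 1.15 (standard error 0.23, edgeR adjusted p = 0.0362, and 0.00873 without Gent replicate 1) was 0.93 with the length offset. Rimbp2, whose product ties RIM to calcium channels, was at 6.14 to 8.97 CPM and 3.09 to 4.33 CPM, a log2 fold change of 1.06 (standard error 0.22, edgeR adjusted p = 0.0427) and of 0.81 with the offset. Neither gene overlapped between the groups, as in 11.3% of tested genes. The scaffold genes Rims1 and Erc1 of the same list did overlap, with log2 fold changes of 0.40 and 0.37 (edgeR adjusted p = 0.526 and 0.295) that were 0.26 and -0.01 with the offset. That of Erc1 was 0.13 without Gent replicate 2 and 0.67 without Gent replicate 1, and that of Rims1 was 0.15 without Gent+Fos OE replicate 3. Unc13b, a vesicle priming factor with 22746 exonic bases, had a log2 fold change of 0.57 that came to -0.02 with the length offset, and Pclo, the bassoon-like scaffold piccolo, went from 0.74 to 0.14, and was 0.44 without Gent+Fos OE replicate 2. DESeq2 called Erc2, Rimbp2 and Unc13b. Ctbp2, whose products include the ribbon protein RIBEYE, was at 48.5 to 58.4 CPM in Gent+Fos OE and 41.3 to 51.1 CPM in Gent (log2 fold change 0.18, edgeR adjusted p = 0.404, and 0.08 both with the offset and without Gent replicate 2). The count covers the whole gene and does not separate the RIBEYE transcript from its other transcripts.

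Among 12 listed calcium buffers and pumps, 11 were tested, none was called, 5 were higher and 2 lower at an unadjusted p under 0.05 in edgeR, and the median log2 fold change was 0.27, or 0.16 with the length offset. Atp2b3, a plasma membrane calcium pump, was at 1.84 to 4.56 CPM in Gent+Fos OE and 0.693 to 1.57 CPM in Gent, with a log2 fold change of 1.42 (standard error 0.41, edgeR adjusted p = 0.101) and of 1.4 with the offset. Atp2b2, the pump of the hair bundle, was at 10.2 to 16.1 CPM and 9.1 to 9.52 CPM, a log2 fold change of 0.55 (edgeR adjusted p = 0.122) and of 0.18 with the offset, and the related pump gene Atp2b4 went from 0.63 to 0.32, and was 0.38 without Gent replicate 2. Calb1 (calbindin) was at 0 to 0.0651 CPM in Gent+Fos OE and at most 0.137 CPM in Gent, under the filter.

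Of 11 listed genes of the cholinergic synapse, 8 were tested, none was called, 2 were higher and 1 lower at an unadjusted p under 0.05 in edgeR, and the median log2 fold change was 0.35, or 0.14 with the length offset. Kcnn2, which encodes the SK2 channel that acts with the alpha9 alpha10 receptor, was at 2.18, 1.84, 2.03 and 1.68 CPM in Gent+Fos OE replicates 1 to 4 and at 0.924, 0.897 and 1.1 CPM in Gent replicates 1 to 3. The groups did not overlap, and the log2 fold change was 0.98 (standard error 0.30, edgeR adjusted p = 0.111), or 0.82 with the offset. Ryr2, a calcium release channel of intracellular stores with 28790 exonic bases, was at 3.6 to 4.84 CPM and 1.68 to 2.48 CPM. Its log2 fold change of 1.05 (edgeR adjusted p = 0.0562, DESeq2 adjusted p = 0.00194) was 0.35 with the offset. Rapsn, the receptor-clustering protein rapsyn, was at 1.04 to 1.64 CPM in Gent+Fos OE and 2.2 to 3.08 CPM in Gent, a log2 fold change of -0.84 (edgeR adjusted p = 0.134) and of -0.59 with the offset. Ache, the acetylcholine-degrading esterase, had a log2 fold change of -0.66 (edgeR adjusted p = 0.276). Slc5a7, the choline transporter, was at 2.05 to 4.2 CPM in Gent+Fos OE and 2.02 to 3.22 CPM in Gent, with overlapping groups (log2 fold change 0.22, edgeR adjusted p = 0.681, -0.02 without Gent+Fos OE replicate 1 and 0.43 without Gent replicate 1), whereas Chat and Slc18a3, which also mark cholinergic neurons such as the efferents, whose cell bodies lie in the brainstem, were at 0 CPM in 5 of the 7 libraries each and at most 0.195 CPM in the others.

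Markers of the cell types that the tissue holds were read in the same fit. Of the 16 hair cell markers 7 were higher and 1 lower at an unadjusted p under 0.05 in edgeR, none was called, and the median log2 fold change was 0.14, or 0.13 with the length offset. The tip link gene Pcdh15 had the lowest p of the list, with means of 116.5 and 55.0 CPM in Gent+Fos OE and Gent (log2 fold change 1.08, edgeR adjusted p = 0.0288, and 0.00194 without Gent replicate 2, log2 fold change 0.55 with the offset), and the potassium channel gene Kcna10 had means of 20.48 and 34.99 CPM (log2 fold change -0.77, edgeR adjusted p = 0.0691, -0.53 with the offset). Spp1, listed as a type I hair cell marker, was at 1296 to 1554 CPM in Gent+Fos OE and 1682 to 1890 CPM in Gent. Myo7a was at 84.3 to 108.1 CPM and 85.0 to 98.4 CPM, and which cells the Spp1 reads came from was not tested. Both tested markers of type I hair cells, Kcna10 and Spp1, were lower at an unadjusted p under 0.05 in edgeR, although the log2 fold change of Spp1, -0.33, was -0.09 with the offset. Pvalb, the parvalbumin gene of the calcium list, whose product the study uses to mark type I hair cells, lay the other way, at 9.87 to 13.8 CPM in Gent+Fos OE and 4.48 to 10.96 CPM in Gent (log2 fold change 0.81, edgeR adjusted p = 0.159, and 1.14 with an adjusted p of 0.0205 with the offset), and it was 1.37 without Gent replicate 2 (edgeR adjusted p = 0.00464). None of the 3 type II markers, Calb2 among them, was past an unadjusted p of 0.05 in edgeR in either direction. Bsn, Rims2 and Calb2 are also transcribed in neurons, and of the 9 neuron markers 6 were tested, 2 were higher and 1 lower at that limit, and their sum was 63.1 to 87.4 CPM in Gent+Fos OE and 66.3 to 85.7 CPM in Gent. The 5 macrophage markers summed to 638.9 to 1146 CPM in Gent+Fos OE and 1244 to 1529 CPM in Gent, the 5 melanocyte markers to 31.2 to 36.8 CPM and 67.5 to 111.5 CPM, and all 10 were lower at that limit, with Tyrp1 and Dct called (edgeR adjusted p up to 0.0445 and 0.025 with single libraries left out). The 9 supporting cell markers summed to 2492 to 3223 CPM and 1935 to 2362 CPM, with 4 of the 9 higher and 1 lower at that limit. Their median log2 fold change was only 0.08, or 0.30 with the offset. To the sums, Otog contributed means of 1065 CPM in Gent+Fos OE and 447.4 CPM in Gent. Otog, which encodes otogelin of the otolithic membrane, was called higher (log2 fold change 1.25, edgeR adjusted p = 0.00852), a call that was lost with the offset (0.95, edgeR adjusted p = 0.0156) and with single libraries left out (edgeR adjusted p up to 0.0415), while the tectorin gene Tectb was lower without overlap, at 39.0 to 82.3 CPM against 98.1 to 208.2 CPM (log2 fold change -1.39, edgeR adjusted p = 0.0348, DESeq2 adjusted p = 8.7e-05, -1.33 with the offset) and was called without Gent replicate 2 (edgeR adjusted p = 0.00413). Of the 5 Schwann cell and 5 mesenchyme markers, 2 and 1 were lower and 0 higher. The part of these cell types in the members' values was not tested.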

How the data were processed

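RNA sequencing counts of 7 libraries of cultured P2 mouse utricles were analysed, 4 of them Gent+Fos OE and 3 Gent by the labels. The study's methods name 3 replicates per condition, and all 7 libraries were used. The deposited values are raw counts of reads per gene. Per the file headers, the authors made them with featureCounts 2.0.6 on an mm10 annotation, counting both reads of a pair separately, without strand, and leaving out reads that mapped to several places or overlapped several genes. The submitters' processing notes name Trim Galore 0.6.10, HISAT2 2.2.1 and mm10, whereas the methods name mm39. Coordinates are those of the files.

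A gene was kept by edgeR's filterByExpr (17155 of 24915 genes with a count), scaled by TMM and compared with edgeR 4.0.16 (quasi-likelihood F-test, Benjamini-Hochberg adjustment over all tested genes, R 4.3.3). The limits for a call, taken from the study's methods, were 0.01 for the adjusted p and 0.25 for the size of the log2 fold change. DESeq2 1.42.0, limma-voom (limma 3.58.1), other scalings and filters, a length offset (loess span 0.3), a replicate block and leaving out each library were the alternatives. Exact permutation tests were two-sided, on log2(CPM + 0.5) over 35 assignments of the libraries, and cannot go below p = 0.0286. Replicates differed by a chi-square per degree of freedom of 18.1 to 151.8, beyond sampling noise, so the spread between pools and not the depth of 27879889 to 34335214 counts set the precision. The pairs with Gent replicate 2 were at 151.8 and 106.4, and all other pairs at 18.1 to 50.1. Mitochondrial genes took 2.86% of the counts in Gent replicate 2 and 1.74% to 1.99% in the other libraries. Floors cover counting error only. The analysis was also tested on simulated data.

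Symbols came from GENCODE vM39 and RefSeq by Ensembl ID and place (24643 genes, all 109 list genes). The members, gene lists and tests were chosen with earlier results of these data known. The text names all members, of each list the called genes and up to 4 with the lowest p, the 5 genes most like Otof, and Fos. The result of 1 gene that this rule names is not reported here. Slc17a6, Slc17a7, Calb1, Ctbp2, Chat, Slc18a3, Slc5a7, Pvalb, Rims1 and Erc1 were named after their values were seen. Promoter windows are from RefSeq (GRCm38.p6), and protein sequences were not used here. Figures were drawn with matplotlib 3.10.9.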

Additional observations from a re-analysis of the deposited data

Results flagged for a closer look

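In 26 groups of 4 Gent+Fos OE libraries, 1 for each named gene with a test, the highest or lowest library was compared with the other 3 by Dixon's gap criterion, which chance passes in about 1 in 20 groups. It singled out 4 values, each a library far from the other 3 of its group. Slc17a8 had 51.76 CPM in Gent+Fos OE replicate 4 and 56.57 to 57.44 CPM in the others, and that library was still above all 3 Gent libraries. Chrna10 was low in the same library, at 9.197 CPM against 12.13 to 12.62 CPM, which left it under 2 of the Gent libraries. Rims2 was high in Gent+Fos OE replicate 2, with 16.14 CPM against 9.509 to 10.29 CPM. Fos was high in Gent+Fos OE replicate 3, with 167 CPM against 148.8 to 151.1 CPM.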

How the results depend on the processing

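Of the 18 alternative fits, DESeq2 alone called members (2 of them, Slc17a8 and Rims2), and the other 17 called 0. Slc17a8, Cacna1d, Bsn, Rims2, Chrna9 and Otof kept the sign of their log2 fold change in all 18. That of Cabp2 turned to 0.11 with the length offset, to 0.14 with offset and replicate block and to 0.06 without Gent replicate 2 (-0.41 to 0.06 with a library left out), that of Calb2 to 0.00 and 0.02 with the offset without and with the block, and that of Chrna10 to -0.09 without Gent replicate 1 (-0.09 to 0.22). Of all tested genes, 23 were called higher and 48 lower. These counts were 275 and 336 with DESeq2, 63 and 141 without a filter, 36 and 65 with the length offset, and 2 to 45 and 3 to 93 with a library left out, the lowest without Gent+Fos OE replicate 3 and the highest without Gent replicate 2. Without a filter more genes were tested, and the cause of the other shifts was not tested.

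A replicate block called 0 genes higher and 0 lower in edgeR, where 1697 and 1703 passed an unadjusted p under 0.05, and with the length offset it called 21 and 34. The replicate numbers are only names here, since same-numbered libraries did not deviate together (r = 0.06, -0.04 and 0.03 for replicates 1 to 3).

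Relative to the hair cell markers, the difference of Otof, -0.02 in the report, was 0.06 against the median of the markers, 0.15 against Myo7a alone, and 0.01, 0.08, 0.04 and 0.03 without Gent+Fos OE replicates 3 and 4 and Gent replicates 2 and 3 (-0.12 to 0.08 with a library left out). Chrna10 turned to 0.01 against Myo7a alone and Bsn to -0.04 without Gent replicate 2 (-0.04 to 0.72). The 2 members without overlap became 1 against the median of the markers, and 2 to 7 with a library left out, 7 without Gent replicate 1 (4 above and 3 below, beside 12% and 31.2% of all tested genes). Depth limits Ocm. With halved counts the log2 fold change of Bsn was again 0.55 (standard error 0.30).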
